A study of Rattus norvegicus with 9 samples.

Results

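This comparison asked which transcripts differed in the cerebral cortex of newborn rats whose line had eaten 750 ppm of 4-methylimidazole (4-MeI), set against rats on the same schedule without the compound. All animals were Hsd:Sprague Dawley SD rats. Parents of the F0 generation were assigned to 0, 750 or 2500 ppm of 4-MeI in the diet from before mating, and exposure then ran without a break through pregnancies and generations. The pups measured belonged to F2b litters and were taken on postnatal day 4, 1 pup from each litter. After decapitation the cortex was dissected and frozen. RNA of 3 control pups (0 ppm) and 3 pups at 750 ppm was hybridised to an Affymetrix rat genome expression array, 1 array per pup. The 6 arrays, of 9 in the series, were compared over all 31042 probe sets that are not array controls. The 3 arrays at 2500 ppm entered the fit to estimate the spread and are quoted for named genes. The series title links the exposure to seizures of the mothers, but neither the seizure history of a pup's dam, nor the sex of the pup, nor a batch is given for any array. Each array is a separate animal from a separate litter.

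4-MeI is a small heterocycle that forms when sugars brown in the presence of ammonia, and it occurs in some caramel colours. A block of newborn cortex holds neurons, glial precursors and blood vessels, and it is covered by the leptomeninges. These membranes are built by fibroblasts that secrete collagens and proteoglycans, make retinoic acid and carry organic anions out of the cerebrospinal fluid. Macrophages sit along the meninges and the vessels. In the first days after birth oligodendrocyte precursors begin to mature, and subplate neurons, the deepest and oldest cortical neurons, are still plentiful.

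All values are log2 intensities after robust multi-array average (RMA) processing, on which a difference of 1 is a factor of 2. Probe sets below a mean of 6.35 over all 9 arrays were dim and left untested, which took away 9313 and left 21729. These stand for 11606 genes when the brightest probe set of each gene is used. Adjusted p-values are those of limma with Benjamini-Hochberg adjustment over the 21729 probe sets. A probe set is said to have risen or fallen only where its adjusted p was under 0.05. With 3 arrays on each side the smallest p an exact permutation test could give is 0.1.

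The arrays had medians between 7.67 and 7.71. Their correlations within a group lay between 0.9938 and 0.9979. Control replicate 3 and 750 ppm replicate 3 lay apart from their groups on the first principal component. Control replicate 3 was at -25.19 against -8.64 and -9.47, and 750 ppm replicate 3 at 14.98 against -5.97 and -11.25. The 2500 ppm arrays were at 18.82, 10.3 and 16.42, so 750 ppm replicate 3 lay among them. That array correlated at 0.9941 and 0.9938 with its own group and at up to 0.9965 with an array of another group. The cortical marker Slc17a7, the vesicular glutamate transporter of excitatory neurons, read 9.12 to 9.37 in controls and 9.10 to 9.58 at 750 ppm. Of 9 tested genes of cortical identity 0 had an unadjusted p under 0.05, and their median was -0.06, and these markers were present in both groups. The mean over 87 meningeal genes, relative to all 9 arrays, was -0.13, -0.44 and -0.78 in controls 1 to 3. It was 0.35, 0.21 and 0.21 at 750 ppm and 0.05, 0.21 and 0.33 at 2500 ppm. Every control thus held less meningeal signal than every exposed pup, and control replicate 3 held the least. The mean over 25 striatal genes was 0.47, 0.42 and -0.71 at 750 ppm against 0.57, 0.24 and 0.35 in controls, which sets 750 ppm replicate 3 apart from the other arrays of its group. Xist, transcribed from the inactive X chromosome, was bright on all 9 arrays, at 11.40 to 12.59 on its brightest probe set, and Uty, a Y-linked gene, was read at 10.02 to 10.42 on all 9. As both were bright in every single pup, sex was not read from them. All 3 tested sex-linked genes lay lower at 750 ppm, 1 at an unadjusted p under 0.05 (2.69% of all genes). Their mean was 0.09, 0.16 and 0.36 in controls and -0.16, 0.16 and -0.14 at 750 ppm. Whether the groups differed in sex was not tested.

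**Figure D1:**
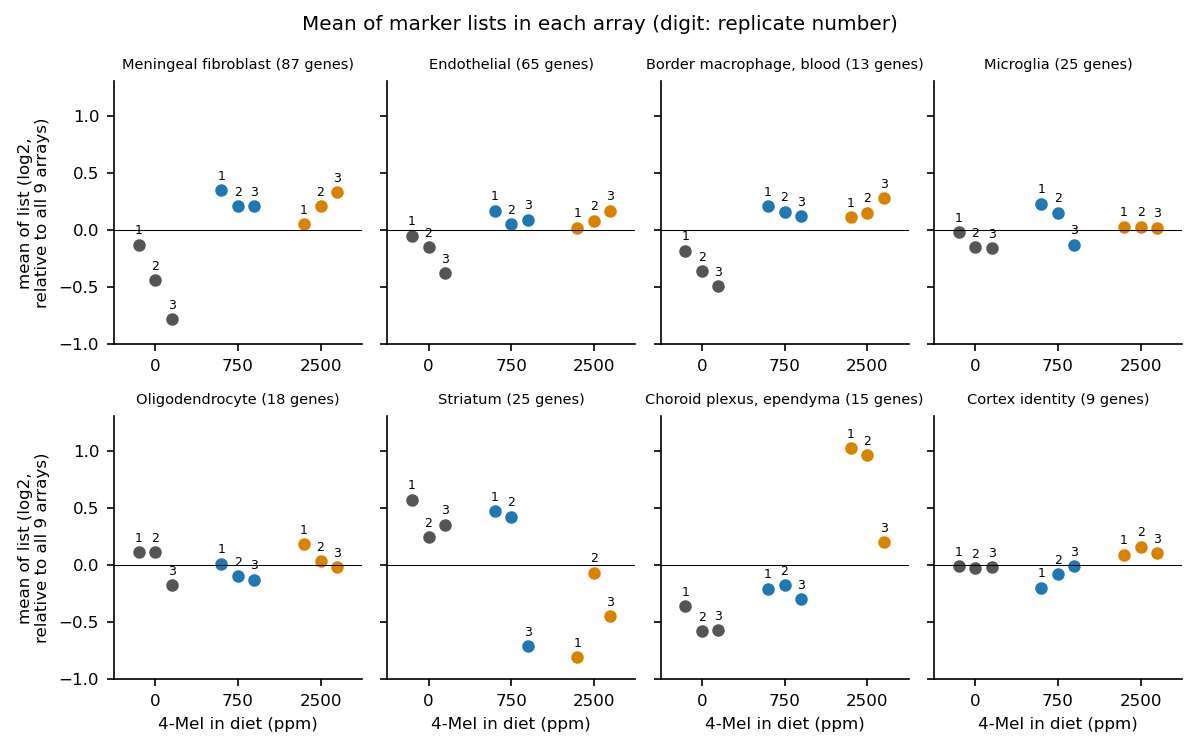
Mean log2 level of 8 marker lists in each array, relative to the mean over all 9 arrays, plotted against the 4-MeI concentration of the diet; every point is 1 array and the digit is its replicate number. The meningeal list lies between -0.78 and -0.13 in controls and between 0.21 and 0.35 at 750 ppm, while the striatal list of 750 ppm replicate 3 lies at -0.71.

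At the adjusted threshold 2 probe sets were called, 0.0092% of those tested, and both fell at 750 ppm. At an unadjusted p under 0.05 there were 2202 (10.1%), of which 1253 lay higher (5.77%) and 949 lower (4.37%) at 750 ppm; 1086 in both directions together would be reached by chance. The arrays of the groups did not overlap for 1653 probe sets that lay higher (7.61%) and 1430 that lay lower (6.58%).

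The gene that fell was Cplx3, on probe set 1384779_at. The gene encodes a complexin, a small protein that clamps and primes the fusion of synaptic vesicles, and in the cortex its transcript marks subplate neurons. Control replicates 1 to 3 read 8.32, 8.08 and 8.27, the 750 ppm replicates 7.48, 7.21 and 7.28, and the 2500 ppm replicates 8.37, 8.32 and 8.36. All 750 ppm arrays lay below all others, with no overlap, and the 2500 ppm arrays lay at the top of the control range or just above it. The difference from control was -0.90 (SE 0.09, n = 3 against 3, adjusted p = 0.031 in limma). The difference of 2500 ppm from 750 ppm was 1.03 (SE 0.09, adjusted p = 0.00469). In bulk tissue, fewer cells of a type and less RNA per cell cannot be told apart. A dim second probe set of the gene was not tested and read 5.03, 4.81 and 4.88 in controls against 4.60, 4.58 and 4.64 at 750 ppm. The call rests on the pooled spread of 9 arrays: with only the 6 arrays compared its adjusted p was 0.317, and it was 0.055 without control replicate 2, 0.132 without control replicate 3 and 0.0964 to 0.1 without 1 of the 2500 ppm arrays.

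The region around the start of Cplx3 is shown because it is the only named gene that passed. The sequence is from RefSeq on GRCr8, chr8:66906151-66906450 on the minus strand, written 5′ to 3′ along the gene from 250 bases before its start to 50 after it. Its GC content was 56.3%.
Cplx3: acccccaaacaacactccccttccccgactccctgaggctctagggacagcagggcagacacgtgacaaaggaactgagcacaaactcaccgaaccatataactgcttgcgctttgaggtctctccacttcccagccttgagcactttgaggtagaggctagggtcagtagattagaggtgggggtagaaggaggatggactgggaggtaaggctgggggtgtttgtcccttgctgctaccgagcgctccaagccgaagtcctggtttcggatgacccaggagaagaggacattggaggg

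Cplx1 and Cplx2, the complexins of most brain synapses, were read beside Cplx3. Cplx1 was at 0.04 (SE 0.08, adjusted p = 0.893) and its arrays overlapped. Cplx2 was at -0.21 (SE 0.11, adjusted p = 0.547), with 10.78, 11.04 and 11.23 at 750 ppm against 11.19 to 11.25 in controls. Neither gene separated the groups, and a test of their difference from Cplx3 was not run.

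The other probe set that fell, 1383612_at, has no gene symbol in the annotation. It read 11.21, 11.20 and 10.97 in controls, 9.45, 9.53 and 9.61 at 750 ppm and 11.13, 11.76 and 11.13 at 2500 ppm. Again the 750 ppm arrays stood alone, below both other groups. The difference from control was -1.59 (SE 0.16, adjusted p = 0.031), and that of 2500 ppm from 750 ppm 1.81 (adjusted p = 0.00469). Its adjusted p was 0.00994 with only the 6 arrays, but 0.292 and 0.0524 without 750 ppm replicate 1 or 2, 0.195 and 0.132 without control replicate 2 or 3, and 0.0964 and 0.1 without 2500 ppm replicate 1 or 3.

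**Figure D2:**
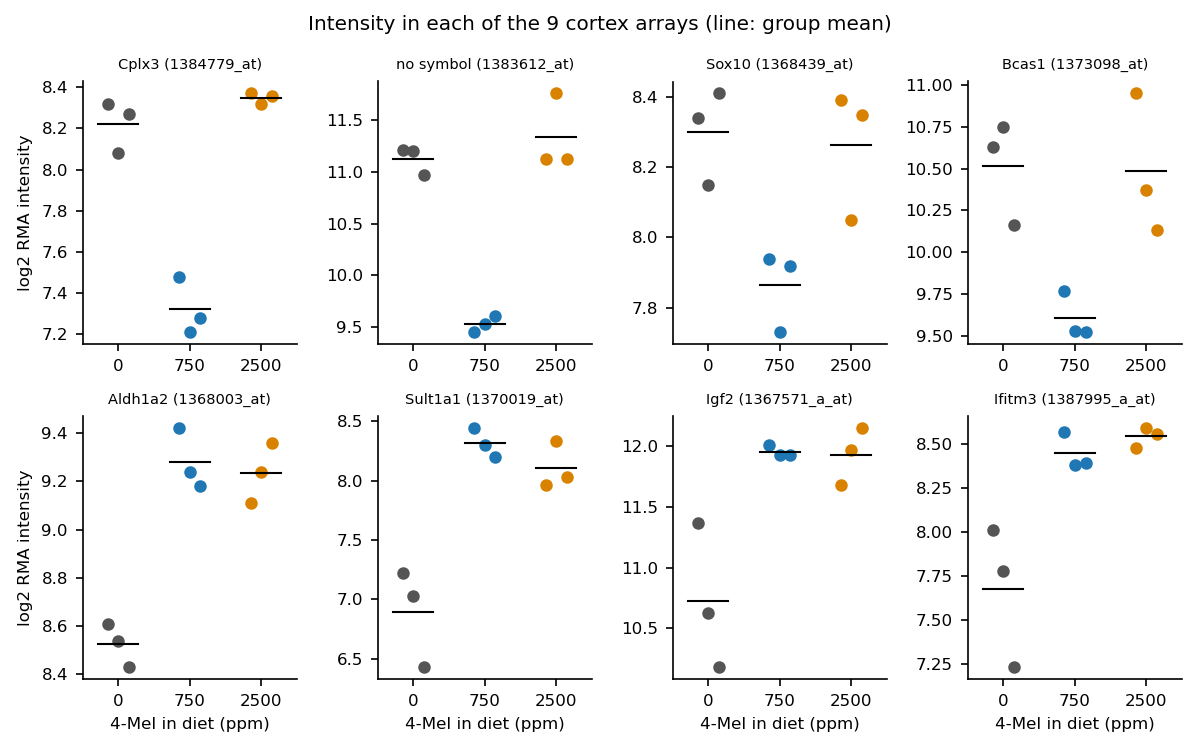
Log2 RMA intensity of 8 probe sets in each of the 9 arrays against the 4-MeI concentration of the diet, with a line at each group mean; the vertical axes differ between panels and do not start at 0. Cplx3 and 1383612_at lie lowest at 750 ppm (7.21 to 7.48 and 9.45 to 9.61), as do Sox10 and Bcas1, whereas Aldh1a2, Sult1a1, Igf2 and Ifitm3 lie lowest in the controls.

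As Cplx3 marks the subplate, the other subplate and layer 6b genes were read beside it. Of 22 tested, 8 lay higher and 14 lower, with 4 higher and 3 lower below an unadjusted p of 0.05, Cplx3 included, and a median of -0.10 that was -0.03 without 750 ppm replicate 3. Over all 11606 genes the shares at that p were 7.14% higher and 2.69% lower, and the shares without overlap 9.88% and 5.23%. Nxph3, a secreted ligand of neurexins made by layer 6b neurons, read 10.41, 10.40 and 10.37 in controls and 9.96, 9.88 and 9.94 at 750 ppm on its brighter probe set, 1374818_at. The groups did not overlap, and the difference was -0.47 (SE 0.09, adjusted p = 0.201); its other probe set gave -0.48 (SE 0.09). Unlike Cplx3, Nxph3 at 2500 ppm (9.96 to 10.32) lay nearer to 750 ppm, and the difference between the doses was 0.17 (adjusted p = 0.461). Ccn2, a matrix protein gene of subplate neurons also known as connective tissue growth factor, was at -0.29 (SE 0.09, adjusted p = 0.313). Its 2500 ppm arrays read 10.23, 10.30 and 10.19, above 9.68, 9.82 and 9.51 at 750 ppm, and that difference of 0.57 passed (adjusted p = 0.0398). Svil, the gene of the actin-binding protein supervillin, lay the other way at 0.74 (SE 0.19, adjusted p = 0.24), as did Lpar1, a lysophosphatidic acid receptor, at 0.78 (SE 0.22, adjusted p = 0.26). Nr4a2, a nuclear receptor that marks subplate and claustrum, spread widely at 750 ppm, with 9.90, 10.17 and 7.84 against 9.44 to 10.43 in controls. The members of the list thus lay on both sides of 0.

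Genes of the tissues that border the cortex lay higher at 750 ppm far more often than other genes. They were collected in 4 lists, for meningeal fibroblasts, endothelium, pericytes with smooth muscle, and border macrophages with blood, and 194 of their 223 genes on the array were tested. Of these, 172 lay higher at 750 ppm (88.7%, against 57% of all genes), 121 of them at an unadjusted p under 0.05 (62.4%) and 1 lay lower at that p (0.515%). The groups did not overlap, in the higher direction, for 130 (67%), against 9.88% of all genes. The median difference was 0.412 over border genes and 0.018 over all genes. A difference of at least 0.5 was met by 226 genes, of which 82 were border genes, all higher. No border gene passed the adjusted threshold. These lists were drawn up with earlier results of these arrays known. Whether the pups differed in these tissues or the dissections in how much of them came along cannot be told apart here. Without control replicate 3 the meningeal median went from 0.70 to 0.52 and the endothelial median from 0.24 to 0.16.

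**Figure D3:**
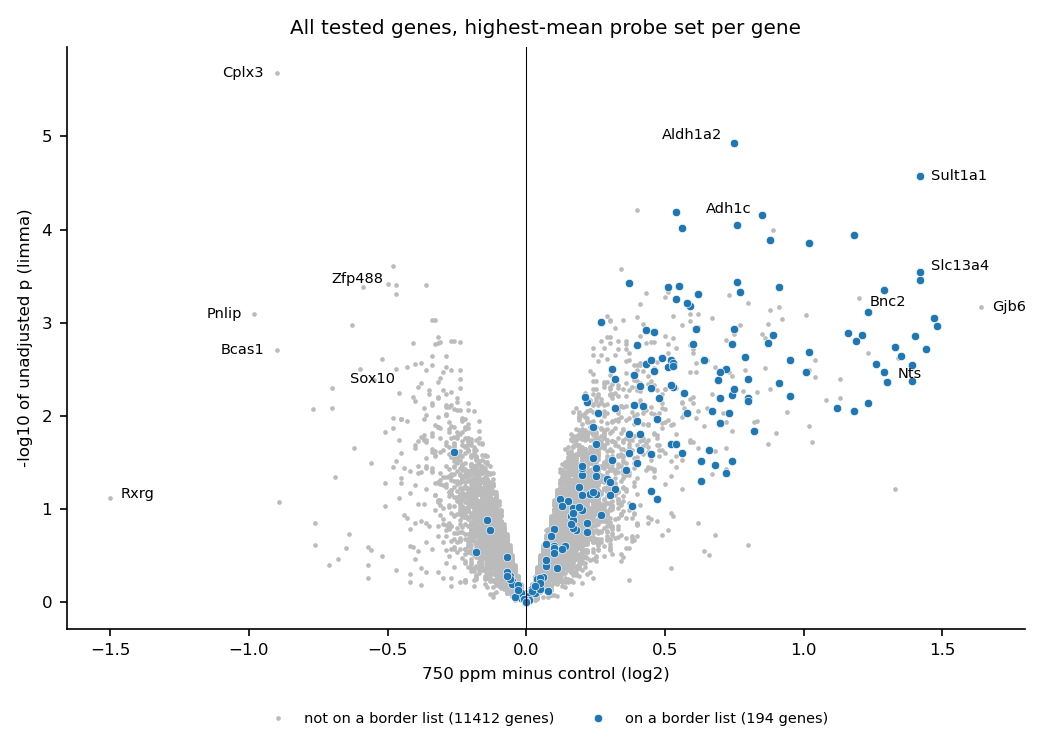
Difference of 750 ppm from control (log2, horizontal) against the −log10 of the unadjusted limma p (vertical) for the 11606 tested genes, 1 probe set per gene. The 194 genes of the border lists (blue) lie mostly to the right, with a median of 0.412, and Cplx3 stands alone at the upper left.

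The meningeal gene with the smallest p belongs to retinoic acid supply. Aldh1a2, which makes retinoic acid from retinal, read 8.61, 8.54 and 8.43 in controls and 9.42, 9.24 and 9.18 at 750 ppm. The spread within each group was small beside the gap, and the difference of 0.75 (SE 0.09) had an adjusted p of 0.0858. Adh1c, an alcohol dehydrogenase that can oxidise retinol, read 6.94, 6.80 and 6.94 against 7.90, 7.69 and 7.63, a difference of 0.85 (SE 0.12, adjusted p = 0.201), although its dimmer probe set gave 0.06. Crabp2, the carrier that delivers retinoic acid to its nuclear receptor, was 1.18 higher (SE 0.19) and Rbp4, the plasma retinol carrier, 0.89 higher (SE 0.20). The receptor genes Rara, Rxra and Rxrb were at 0.03, 0.08 and 0.01, and Cyp26b1, which degrades retinoic acid, was at -0.06. Outside the border lists, 6.2% of genes were above control with an unadjusted p below 0.05. Of 28 retinoid genes tested, 9 lay higher at an unadjusted p under 0.05 and 0 lower, but among the 22 that are not border genes there were 3, with a median of 0.02. Rxrg and Rarb, retinoid receptors of the striatum, differed between arrays of the same group far more than these: Rxrg read 9.71, 9.78 and 7.05 at 750 ppm and Rarb 11.42, 11.27 and 8.11.

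The fibrous matrix of the meninges lay higher as well. Its counts stand beside 7.14% of all genes above control and 2.69% below it where the unadjusted p was below 0.05. Of 35 collagen genes 24 lay higher, 18 at an unadjusted p under 0.05, with a median of 0.24; the 20 collagens outside the border lists had a median of 0.01, with 6 higher and 1 lower at that p. Col1a2, a chain of type I collagen, read 10.82, 10.19 and 9.74 in controls and 11.67, 11.64 and 11.32 at 750 ppm. The controls covered a wide range while the exposed arrays lay close together, and the difference was 1.29 (SE 0.24, adjusted p = 0.201). Col6a1, of the beaded microfibrils around cells, differed by 0.54 (SE 0.08) from controls that agreed closely, at 7.84, 7.61 and 7.74. Of 8 small leucine-rich proteoglycans, which regulate collagen fibrils, 7 lay higher at an unadjusted p under 0.05, with a median of 0.78. Ogn read 9.65, 9.06 and 8.15 against 10.58, 10.38 and 10.31, and Fmod 7.50, 7.20 and 6.87 against 8.38, 8.06 and 8.18. In both genes control replicate 3 was the lowest array of all. Podn was the exception at -0.07. Laminins, the cross-shaped proteins of basement membranes, had a median of 0.31 over 9 genes, 6 of them higher at that p, and 8 of the 9 are not on a border list. Lama1, an early basement membrane chain, was at 0.36 (SE 0.08), Lamc1 at 0.29 (SE 0.08) and Lama2 at 0.59 (SE 0.12). The integrins that bind these matrices had a median of 0.07 over 16 genes with 1 at that p.

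Transporters of the meningeal barrier were among the largest differences. Slc13a4, a sulfate carrier, read 8.87, 8.46 and 7.78 in controls and 9.96, 9.74 and 9.64 at 750 ppm (difference 1.42, SE 0.25, adjusted p = 0.201). Slc6a13, which takes up GABA and taurine in the meninges, read 8.18, 7.92 and 7.10 against 9.40, 9.12 and 8.94, a difference of the same size (1.42, SE 0.26). Both genes were lowest in control replicate 3. Below an unadjusted p of 0.05, 7.14% of all genes lay higher and 2.69% lower, and outside the border lists 6.2% and 2.73%. Of 16 organic anion and cation carriers 7 lay higher and 1 lower at that p, yet the 8 of them outside the border lists had a median of -0.02. Over the 183 further solute carriers that are neither on a border list nor in those groups, 14 lay higher and 2 lower at that p, with a median of 0.03 beside 0.018 over all genes. Ptgds, the prostaglandin D synthase that leptomeningeal cells secrete into cerebrospinal fluid, was the brightest of these genes, at 12.40, 12.15 and 10.94 in controls and 13.33, 13.10 and 13.27 at 750 ppm. Its difference of 1.40 (SE 0.31) had an adjusted p of 0.201.

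Junction and growth factor genes of the meninges lay alongside. The connexins Gjb6 and Gjb2, which couple meningeal cells and astrocytes, read 7.91, 7.28 and 6.40 and 10.44, 9.76 and 8.70 in controls. At 750 ppm they read 8.92, 8.75 and 8.83 and 11.21, 11.07 and 10.77. No arrays overlapped, and the differences were 1.64 (SE 0.33, adjusted p = 0.201) for Gjb6 and 1.39 (SE 0.37, adjusted p = 0.25) for Gjb2. Gja1, the connexin of astrocytes, was at 0.24 (SE 0.09) with overlap. Igf2, an imprinted growth factor that meninges and vessels express after birth, read 11.37, 10.63 and 10.18 against 12.01, 11.93 and 11.93 (difference 1.23, SE 0.25), but its other tested probe set was at 0.02. Among 19 genes of the insulin-like growth factor system 4 lay higher at an unadjusted p under 0.05 and 0 lower. Over all genes those shares were 7.14% and 2.69%. The bone morphogenetic proteins Bmp5, Bmp6 and Bmp7, made by meninges, were at 0.67, 0.70 and 0.58 on their brightest probe sets, the other probe sets of Bmp6 lying at -0.08 to 0.43, while the 13 ligands and receptors of that family outside the border lists had a median of -0.04.

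Vascular genes lay higher by smaller amounts. The whole set of tested genes gives the background: 57% were above control, 7.14% of all genes with an unadjusted p below 0.05. Of 65 endothelial genes 58 lay higher, 31 at an unadjusted p under 0.05, with a median of 0.24. Slco1a4, the organic anion transporter of the blood-brain barrier, read 7.83, 7.52 and 7.43 in controls and 8.49, 8.34 and 8.23 at 750 ppm (difference 0.76, SE 0.12, adjusted p = 0.201). Emcn, a sialomucin of veins and capillaries, read 7.92, 7.64 and 6.96 against 8.46, 8.28 and 8.40 (0.87, SE 0.20). The tight junction gene Cldn5 read 11.40, 11.23 and 10.81 against 11.69, 11.64 and 11.63 (0.51, SE 0.13). In all of these the groups were apart and control replicate 3 was lowest. Of 29 pericyte and smooth muscle genes 22 lay higher, 10 at that p, with a median of 0.16 that was 0.10 without 750 ppm replicate 1. Col4a1, the basement membrane collagen of vessels, was at 0.46 (SE 0.10) and Mylk, the myosin kinase of smooth muscle, at 0.46 (SE 0.12).

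Macrophage and red cell genes both lay higher, with a different order of the control arrays in each. As background, 57% of all genes were above control. Where the unadjusted p was below 0.05, 7.14% of all genes were above and 2.69% below. Of 13 tested genes for border macrophages and blood, 12 lay higher, 9 at an unadjusted p under 0.05, with a median of 0.40. Mrc1, the mannose receptor of border macrophages, read 7.51, 7.06 and 6.32 in controls and 8.33, 7.95 and 8.16 at 750 ppm (1.19, SE 0.27, adjusted p = 0.201). Lyve1, the hyaluronan receptor of the same cells and of lymphatic vessels, read 8.63, 7.85 and 6.91 against 9.30, 9.20 and 9.21 (1.44, SE 0.34). Both had the spread over control arrays seen in meningeal genes. The red cell gene Alas2, of haem synthesis, read 7.85, 7.97 and 7.99 against 8.74, 8.64 and 8.29 (0.62, SE 0.12). Hbb, beta globin, read 13.45, 13.54 and 13.61 against 14.13, 14.07 and 13.69 (0.43, SE 0.11). For these red cell genes control replicate 3 was the highest control, and 750 ppm replicate 3 was the nearest to control. Microglial genes, from the macrophages inside the tissue, lay higher for 21 of 25, 8 at an unadjusted p under 0.05 and 0 lower, with a median of 0.18. C1qc, a subunit of complement C1q, read 7.92, 7.73 and 7.66 against 8.36, 8.29 and 8.03 (0.46, SE 0.10, adjusted p = 0.201). The mean of the microglial list was 0.23, 0.15 and -0.13 at 750 ppm against -0.02, -0.15 and -0.16 in controls, so 750 ppm replicate 3 lay inside the control range.

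With the border genes set aside, 11412 genes were left. Of these 56.4% lay higher at 750 ppm, with 708 higher (6.2%) and 311 lower (2.73%) below an unadjusted p of 0.05 and a median of 0.016. Their groups did not overlap for 1017 higher (8.91%) and 607 lower (5.32%). A difference of at least 0.5 was met by 144, 113 higher and 31 lower. Ranked by p, 23 of the first 50 genes were border genes (46%), 36 of the first 100 (36%) and 73 of the first 250 (29.2%), while border genes are 1.67% of those tested. In probe sets, 1106 lay higher and 947 lower outside the lists at that p, and 1073 in both directions together would be reached by chance. The lists cannot name every border gene, so probe sets whose deviations within groups ran with the meningeal mean (absolute r of at least 0.8 over the 9 arrays) were set aside as well. That held for 38.7% of border probe sets and 4.39% of the others, and it left 20525 probe sets, 907 higher and 920 lower. The meningeal genes are on the border lists and make that mean, so the first share is partly given by construction. After both steps the numbers of probe sets on either side were nearly even. Probe sets without a single gene symbol are among those counted. Before the second step 185 of them lay higher and 420 lower at that p. By gene, the shares outside the lists were still 6.2% higher and 2.73% lower, with co-varying genes not set aside.

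The mean of the meningeal genes could also be entered as a covariate in the fit. No probe set then passed the adjusted threshold, and 612 had an unadjusted p under 0.05, 263 higher and 349 lower. The groups do not overlap in that mean, so the covariate and the exposure are largely the same contrast. The median standard error went from 0.086 to 0.161, 1.88 times larger. Cplx3 was at -0.99 (SE 0.17) in this fit and 1383612_at at -1.80, and both calls were lost, with an adjusted p of 1. The meningeal median was -0.02, near 0 by construction since these genes make the covariate, and the endothelial median was -0.09.

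Among genes that are on no border list, differ by at least 0.5 and show no overlap, 89 lay higher and 15 lower, and the 12 with the smallest p on each side are named. None but Cplx3 passed the adjusted threshold. The 12 higher genes had adjusted p of 0.201. Gjb6 has been given above. Bnc2, a zinc finger factor of mesenchyme, read 7.16, 6.36 and 6.54 in controls and 7.90, 8.03 and 7.73 at 750 ppm (1.20, SE 0.23). Ddr2, a receptor tyrosine kinase for fibrillar collagen, read 7.91, 7.91 and 7.27 against 8.56, 8.39 and 8.56 (0.80, SE 0.16), and its other tested probe set gave 0.79. Dab2, an endocytic adaptor of fibroblasts and macrophages, read 9.98, 9.47 and 9.12 against 10.38, 10.49 and 10.44 (0.91, SE 0.18). All 3 genes are known from connective tissue. Dmrtc1c1 was at 0.89 (SE 0.14), Fcgrt, the neonatal Fc receptor that recycles immunoglobulin G, at 0.51 (SE 0.10) and Lrrc17 at 0.73 (SE 0.14). Gypc, a membrane skeleton glycoprotein, was at 0.88 (SE 0.18), Plin3, a lipid droplet protein, at 0.59 (SE 0.12) and Fmo1, a flavin monooxygenase, at 0.62 (SE 0.13). Sned1, a matrix protein gene, was at 1.01 (SE 0.21) and Wls, which carries Wnt proteins to the cell surface, at 0.53 (SE 0.11). Of the 12, 8 ran with the meningeal mean within groups: Lrrc17, Ddr2, Dab2, Gjb6, Gypc, Fmo1, Sned1 and Wls. In the covariate fit the 12 lay between 0.00 (Gjb6) and 0.51 (Dmrtc1c1). Between 750 and 2500 ppm none of the 12 passed, and the smallest adjusted p was 0.188 (Lrrc17).

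None of the 12 lower genes ran with the meningeal mean within groups. That mean varied within groups mainly among the controls, so this rule cannot show that a gene is independent of border tissue. Cplx3 was the first. Pnlip, the gene of pancreatic lipase, read 8.99, 8.65 and 8.44 in controls and 8.03, 7.67 and 7.42 at 750 ppm, with 9.01, 8.47 and 8.47 at 2500 ppm (difference from control -0.98, SE 0.20, adjusted p = 0.201). Cit, citron kinase of dividing cells and neurons, read 9.57, 9.67 and 9.38 against 8.87, 8.81 and 9.18 (-0.59, SE 0.11, adjusted p = 0.201). Ccdc191, a coiled-coil protein gene, was at -0.50 (SE 0.09, adjusted p = 0.201). Foxo1, a forkhead factor under insulin control, was at -0.63 (SE 0.14, adjusted p = 0.201), but its other tested probe set was at -0.06. Grm3, a metabotropic glutamate receptor of astrocytes and neurons, read 12.08, 11.95 and 11.89 against 11.06, 11.72 and 11.50 (-0.55, SE 0.14, adjusted p = 0.249). The gap to control was widest in 750 ppm replicate 1. Rorb, the nuclear receptor of layer 4 neurons, read 9.50, 9.02 and 9.45 against 8.29, 8.98 and 8.61 (-0.70, SE 0.19, adjusted p = 0.256), with -0.14 on its other probe set. Syt6, a synaptotagmin of deep layer neurons, was at -0.52 (SE 0.13) and lower again at 2500 ppm, at 7.05 to 7.13 against 7.35 to 7.81 at 750 ppm (adjusted p of that step 0.164). Ston2, an adaptor for retrieving synaptic vesicle proteins, was at -0.60 (SE 0.15), Asb2, a substrate adaptor of a ubiquitin ligase, at -0.70 (SE 0.21), and Cox6b2, a testis-type cytochrome oxidase subunit, at -0.77 (SE 0.23). Bcas1 is described with the oligodendrocyte genes. In the covariate fit the 12 lay between -0.30 (Syt6) and -1.37 (Pnlip), all still below 0.

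**Figure D4:**
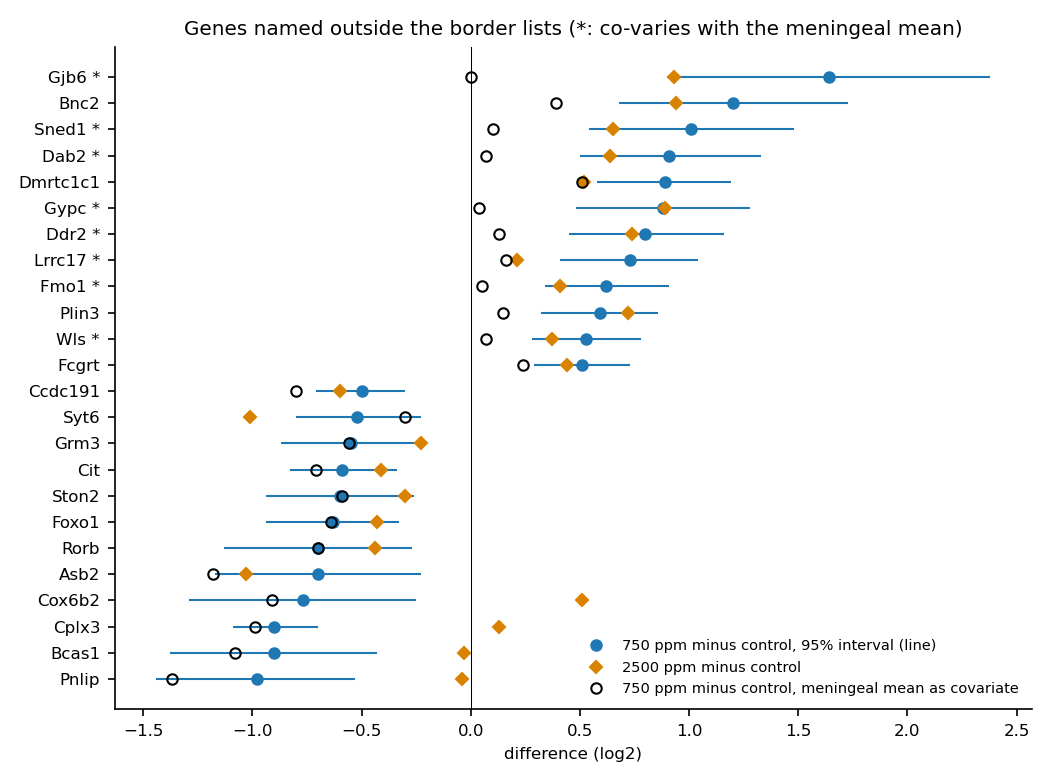
Differences on the log2 scale for the 24 genes named outside the border lists: 750 ppm minus control with its 95% interval (blue), 2500 ppm minus control (orange) and 750 ppm minus control with the meningeal mean as a covariate (open). The higher genes move towards 0 with the covariate, to between 0.00 and 0.51, and the lower genes stay between -0.30 and -1.37; both dose contrasts share the same 3 controls.

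Oligodendrocyte genes lay on both sides of control at 750 ppm. Of 18 tested 4 lay higher and 14 lower, with 2 higher and 6 lower below an unadjusted p of 0.05, where the shares over all genes were 7.14% and 2.69%. The median was -0.15, and -0.08 without control replicate 2. Of the 16 that are not border genes 3 lay higher. At an unadjusted p under 0.05 these 16 had 1 higher and 6 lower, with a median of -0.20 over all 16. Sox10, the transcription factor that defines the lineage, read 8.34, 8.15 and 8.41 in controls, 7.94, 7.73 and 7.92 at 750 ppm and 8.39, 8.05 and 8.35 at 2500 ppm (difference from control -0.43, SE 0.11, adjusted p = 0.228). Bcas1, which marks oligodendrocytes as they start to form myelin, read 10.63, 10.75 and 10.16, then 9.77, 9.53 and 9.52, then 10.95, 10.37 and 10.13 (-0.90, SE 0.21, adjusted p = 0.204). In both genes every 750 ppm array lay below every control, and the 2500 ppm arrays lay within or near the control range. The differences of 2500 from 750 ppm were 0.40 for Sox10 (adjusted p = 0.189) and 0.87 for Bcas1 (adjusted p = 0.147). The other 4 lower genes are named here after their values were seen. Myrf, the factor that switches on myelin genes, was at -0.37 (SE 0.13, adjusted p = 0.368), Nkx2-2, a homeobox factor of precursors, at -0.25 (SE 0.10), and Vcan, the proteoglycan versican, at -0.22 (SE 0.08). Mbp, myelin basic protein, was at -0.22 (SE 0.09, adjusted p = 0.464) on its brightest probe set and at -1.22 (SE 0.37) and -0.47 (SE 0.15) on the others. On 1368810_a_at it read 10.31, 10.36 and 9.21 in controls and 9.17, 8.70 and 8.35 at 750 ppm, so control replicate 3 lay close to the exposed arrays. Zfp488, a cofactor of Olig2 that is on no list and was also picked after its values were seen, read 8.07, 8.10 and 8.07 in controls, 7.66, 7.47 and 7.71 at 750 ppm and 8.21, 7.94 and 8.17 at 2500 ppm (-0.47, SE 0.09, adjusted p = 0.201; 2500 against 750 ppm 0.49, adjusted p = 0.0595). Of the genes of early precursors, Pdgfra, the receptor for platelet-derived growth factor, was at 0.10 (SE 0.09) and Olig1 at 0.00 (SE 0.15). The 2 genes of the list that lay higher at that p were Aspa, an enzyme that splits N-acetylaspartate (0.49, SE 0.15), and Cldn11 (1.18, SE 0.36). Cldn11, a claudin of myelin, is also a tight junction gene of the meninges and is on the border list, and its control arrays read 10.34, 9.70 and 8.53. The mean of the whole list did not separate the groups, at 0.11, 0.11 and -0.18 in controls and 0.01, -0.10 and -0.13 at 750 ppm.

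Among interferon-induced genes the Ifitm cluster had the smallest p. Ifitm genes encode membrane proteins that block the entry of viruses, and vessels and meninges express them without infection. Ifitm3 read 8.01, 7.78 and 7.23 in controls and 8.57, 8.38 and 8.39 at 750 ppm (0.77, SE 0.16, adjusted p = 0.201). Ifitm2 read 9.55, 9.26 and 8.79 against 10.03, 9.89 and 9.85 (0.72, SE 0.16) and Ifitm1 7.32, 7.03 and 6.53 against 8.01, 7.72 and 7.72 (0.85, SE 0.19). In all of them control replicate 3 was lowest, as in the meningeal genes, and in the covariate fit they were at 0.02, -0.07 and -0.03. B2m, the light chain of class I MHC, was at 0.27 (SE 0.09). Of the classical markers of an interferon response, Isg15 was at -0.13 (SE 0.08), Ifit1 at 0.01 (SE 0.16), Irf7 at 0.00 (SE 0.07), Mx2 at 0.09 (SE 0.38) and Stat2 at 0.23 (SE 0.15). Rsad2, viperin, was at 0.26 (SE 0.11) and was the fifth of the list to lie higher at an unadjusted p under 0.05, of 22 tested. The median of the list was 0.12, and 7.14% of all genes lay higher at that p.

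The start regions of Ifitm2 and Ifitm3 are shown because both genes lay higher with no overlap and both hold the core of the interferon-stimulated response element, searched on both strands as GAAA, any 2 bases and GAAA. The sequences are from RefSeq on GRCr8, on the minus strand at chr1:205482299-205482598 for Ifitm2 and chr1:205541709-205542008 for Ifitm3, from 250 bases before the start to 50 after it, with the motif in capitals. Its first base lies 33 bases before the start in Ifitm2 and 44 in Ifitm3. It occurs in 1312 of all 33469 start regions of that length (3.92%) and in those of 15 of 25 genes of the interferon list. A match describes the letters and shows no binding. Both regions were picked for holding the motif, and the list for its link to interferon. These counts therefore do not test an interferon response in these arrays.
Ifitm2: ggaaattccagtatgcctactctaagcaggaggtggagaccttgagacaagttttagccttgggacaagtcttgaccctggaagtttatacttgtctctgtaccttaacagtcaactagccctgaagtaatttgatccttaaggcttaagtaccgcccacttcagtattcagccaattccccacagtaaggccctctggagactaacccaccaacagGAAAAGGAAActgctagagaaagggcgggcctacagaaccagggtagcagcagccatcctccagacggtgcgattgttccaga
Ifitm3: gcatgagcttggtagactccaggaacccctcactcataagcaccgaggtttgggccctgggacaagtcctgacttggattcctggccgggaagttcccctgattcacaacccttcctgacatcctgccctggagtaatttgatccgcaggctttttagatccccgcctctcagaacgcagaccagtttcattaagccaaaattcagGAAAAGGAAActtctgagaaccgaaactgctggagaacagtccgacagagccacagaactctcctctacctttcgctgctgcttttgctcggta

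Genes that handle foreign compounds lay higher for 22 of 30, 8 at an unadjusted p under 0.05 and 0 lower, with a median of 0.11 that was 0.07 without 750 ppm replicate 1. Sult1a1, a sulfotransferase of phenols, read 7.22, 7.03 and 6.43 in controls and 8.44, 8.30 and 8.20 at 750 ppm (1.42, SE 0.19, adjusted p = 0.145), and Cyp1b1, a cytochrome P450 of vessels and meninges, 9.24, 8.72 and 8.75 against 9.78, 9.73 and 9.85 (0.88, SE 0.14). Both are on the meningeal list. Without border genes, 27 were tested, with 5 higher and 0 lower below an unadjusted p of 0.05, beside 6.2% and 2.73% of all genes outside the border lists. The median was 0.10, and leaving out 1 array put it as low as 0.05 (without control replicate 3) or 0.06 (without control replicate 2 or 750 ppm replicate 1). Ephx1, microsomal epoxide hydrolase, read 8.05, 8.06 and 7.83 against 8.38, 8.30 and 8.35 (0.36, SE 0.08, adjusted p = 0.201). Nqo1, a quinone reductase induced by oxidants, was at 0.26 (SE 0.11) and Hmox1, haem oxygenase, at 0.23 (SE 0.10) with overlap. The 17 glutathione transferases tested all lay above 0, with 4 at that p and a median of 0.14. Gsta1 read 6.28, 6.42 and 6.38 against 7.90, 7.74 and 7.11 (1.23, SE 0.36, adjusted p = 0.286); it is on the meningeal list, but its controls were close together and it was at 1.79 in the covariate fit. Gstt3 read 7.72, 7.53 and 7.29 against 8.41, 8.10 and 7.74 (0.57, SE 0.16). Mgst1, a microsomal member, read 7.44, 7.05 and 6.41 at 750 ppm against 6.20 to 6.45 in controls, so 1 array overlapped. Aldehyde dehydrogenases lay higher for 14 of 15, with 2 at that p. The glutathione transferases had a median of -0.04 and the aldehyde dehydrogenases of -0.09 in the covariate fit. Outside these families, the cystine carrier Slc7a11, which feeds glutathione synthesis and is also strong in meninges, read 9.52, 9.33 and 9.03 against 10.40, 10.33 and 9.76 (0.87, SE 0.19, adjusted p = 0.201).

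Metabolic and stress lists had small medians. For comparison, 57% of all genes were above control. With an unadjusted p below 0.05, 7.14% of all genes were above it and 2.69% below it. Of 47 genes of oxidative phosphorylation 40 lay higher, 8 at an unadjusted p under 0.05 and 0 lower, but the median was 0.06, and 0.03 without 750 ppm replicate 1. Ndufs3, a core subunit of complex I, read 11.00, 11.06 and 11.07 against 11.34, 11.20 and 11.21 (0.21, SE 0.06, adjusted p = 0.318). Of 32 heat shock and unfolded protein genes 25 lay higher, 2 at that p, with a median of 0.09 that was 0.00 without control replicate 3. Hspb8, a small heat shock protein, was at 0.45 (SE 0.10, adjusted p = 0.201) on its brighter probe set and at 0.14 on the other. Of 27 genes of cholesterol synthesis 21 lay higher with 0 at that p, and their median of 0.13 was also 0.00 without control replicate 3. The largest of them was Ebp, sterol isomerase, at 0.56 (SE 0.26), which read 8.16, 8.25 and 7.08 in controls and 8.33 to 8.46 at 750 ppm, so control replicate 3 made most of the gap. Genes of glycolysis and hypoxia, p53 targets and cytosolic ribosomal proteins had medians of 0.06, -0.01 and -0.01.

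Neuronal gene groups were read against all genes, of which 7.14% lay higher and 2.69% lower with an unadjusted p under 0.05. Deep layer genes lay lower for 17 of 21, 3 at that p and 1 higher. Their median of -0.17 was -0.01 without 750 ppm replicate 1 and -0.07 without control replicate 2. Upper layer genes lay lower for 14 of 19, 2 at that p and 0 higher, and Rorb is counted in both lists. Their median of -0.10 was -0.04 without 750 ppm replicate 1 or control replicate 3. Of 21 interneuron genes 4 lay higher and 1 lower at that p, with a median of -0.07 that was 0.11 without 750 ppm replicate 3. The lower one was Sox6, a factor of interneuron maturation, at 9.48, 9.48 and 9.23 in controls and 8.92, 9.28 and 8.92 at 750 ppm (-0.36, SE 0.11, adjusted p = 0.313), with overlap. The higher ones lay between 0.19 (Maf) and 0.34 (Calb2, the calcium-binding protein calretinin), and Maf had -0.10 on another probe set. Tshz2, a zinc finger factor of deep layer neurons, went the other way, at 8.92, 9.27 and 8.86 in controls and 9.74, 9.98 and 9.53 at 750 ppm (0.73, SE 0.19, adjusted p = 0.232). Genes of migrating and immature neurons had a median of -0.02 over 36. Dcx, doublecortin of migrating neurons, was at -0.02 (SE 0.06) on its brightest probe set and at -0.52 (SE 0.10, adjusted p = 0.201) on 1387601_at, so its probe sets disagree. Cell cycle genes lay lower for 37 of 49, but only Cit and Aurka did so at that p, and the median was -0.08, and 0.05 without 750 ppm replicate 3. Astrocyte genes were split, 15 higher and 17 lower, with a median of -0.01; aquaporin Aqp4, of astrocyte end-feet, was at -0.01 (SE 0.10).

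Receptor and channel families differed in their counts. Of 16 ionotropic glutamate receptors and of 10 GABA-A receptors 0 had an unadjusted p under 0.05, with medians of -0.01 and 0.09. Over all genes the shares at that p were 7.14% higher and 2.69% lower. Of 51 potassium channels 2 lay higher and 1 lower, Kcna1 (the lower) at -0.24 (SE 0.09). Sodium channels had 0 higher and 2 lower of 10: Scn8a, of the axon initial segment, read 7.07, 6.94 and 7.05 against 6.78, 6.75 and 6.73 (-0.27, SE 0.06, adjusted p = 0.201), and Scn3a, of immature neurons, was at -0.32 (SE 0.10). Scn8a was tight within groups and its groups did not overlap. Cacng4, an AMPA receptor auxiliary subunit counted with the calcium channels, was at -0.33 (SE 0.07, adjusted p = 0.201). Of 14 synaptotagmins, calcium sensors of vesicle fusion, 4 lay lower and 0 higher at that p, among them Syt11 at -0.33 (SE 0.08), with a median of -0.03. Hrh3, the histamine autoreceptor, read 8.07, 7.87 and 8.10 against 7.79, 7.56 and 7.54 (-0.38, SE 0.09, adjusted p = 0.221), with 0.04 on its other probe set. Of 22 immediate early genes, which follow neuronal activity, 1 lay higher and 2 lower at that p; Nr4a1 was at -0.29 (SE 0.07, adjusted p = 0.23) and Bdnf, brain-derived neurotrophic factor, at 0.35 (SE 0.14) with overlap. Among neuropeptides Nts, neurotensin, read 8.55, 9.04 and 8.83 against 10.39, 10.49 and 9.54 (1.34, SE 0.32, adjusted p = 0.218), and Pcsk2, a convertase that processes peptide precursors, was at -0.47 (SE 0.12, adjusted p = 0.23). The peptide list as a whole was even, with 4 higher and 4 lower at that p of 26.

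Hormone lists outside the border genes did not share a direction. Of all genes outside the border lists 6.2% lay higher and 2.73% lower with an unadjusted p under 0.05. Of 18 thyroid hormone genes that are not border genes 0 lay higher and 6 lower at that p, with a median of -0.07. Of 20 glucocorticoid genes 3 lay higher and 1 lower, with a median of 0.01. The highest was at 1.64, the value given above for Gjb6, which was at 0.00 in the covariate fit. Of 15 genes of the insulin-like growth factor system 2 lay higher and 0 lower, with a median of 0.05. Thrb, a thyroid hormone receptor, read 11.20, 11.21 and 10.98 in controls and 10.77, 10.78 and 10.83 at 750 ppm (-0.34, SE 0.10, adjusted p = 0.292), and its other tested probe sets gave -0.37 and -0.38. Klf9, a factor induced by thyroid hormone and glucocorticoids, was at -0.39 (SE 0.14, adjusted p = 0.383) on its brightest probe set and at -0.16 on another. The lowest value of the thyroid list and of the glucocorticoid list was -0.39 as well, so the lists are not separate evidence. Ttr, the thyroxine carrier of choroid plexus, read 7.70, 7.34 and 8.17 in controls and 9.29, 10.01 and 7.91 at 750 ppm, so 1 exposed array overlapped (1.33, SE 0.62, adjusted p = 0.511). At 2500 ppm Ttr read 12.06 to 14.19, and that step from 750 ppm passed (4.33, adjusted p = 0.03); the 15 choroid plexus and ependyma genes had a median of 0.06 at 750 ppm (-0.03 without control replicate 2) and 0.82 at 2500 ppm, against the same controls. Of 19 clock genes 0 lay higher and 3 lower at the same unadjusted p, with a median of -0.11 that was -0.03 without control replicate 3 and 0.02 in the covariate fit. The lowest of the 19 was at -0.70, the value given above for Rorb, whose other probe set was at -0.14. Npas2, a partner of the clock factor BMAL1, read 10.75, 10.62 and 10.54 against 10.18, 10.42 and 10.28 (-0.34, SE 0.08, adjusted p = 0.214). At 2500 ppm Npas2 read 11.02 to 11.15, and the doses differed by 0.79 (adjusted p = 0.00869). Nr1d1, a clock repressor, was at -0.27 (SE 0.13) from control, and its doses differed by 0.83 (adjusted p = 0.0398).

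The striatal list was uneven over the 750 ppm arrays, with its lowest mean in replicate 3. Of 25 tested 19 lay lower, 5 at an unadjusted p under 0.05, where the share over all genes was 2.69%. For 6 of the 25 every 750 ppm array lay below every control, against 5.23% of all genes. At 2500 ppm the list median was -0.85 against the same controls, and the list means were -0.81, -0.07 and -0.45. The median of -0.36 was 0.06 without control and 750 ppm replicates 3, left out after they were seen to stand apart. Drd1, the dopamine receptor of striatal neurons, read 10.08, 9.86 and 8.11 at 750 ppm against 9.75 to 10.19 in controls, so only replicate 3 lay low. Tac1, the substance P precursor, lay below every control on every 750 ppm array, at 10.09, 9.97 and 9.66 against 10.56, 10.33 and 10.13 (-0.43, SE 0.14, adjusted p = 0.328). Pde10a, a phosphodiesterase of the same neurons, was at -0.51 (SE 0.17), and Foxp1, a forkhead factor of striatum and cortex, at -0.44 (SE 0.18), with -0.13 to -0.62 on its other probe sets. For Tac1, Pde10a and the brightest probe set of Foxp1 the groups did not overlap, while the list means did.

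**Figure D5:**
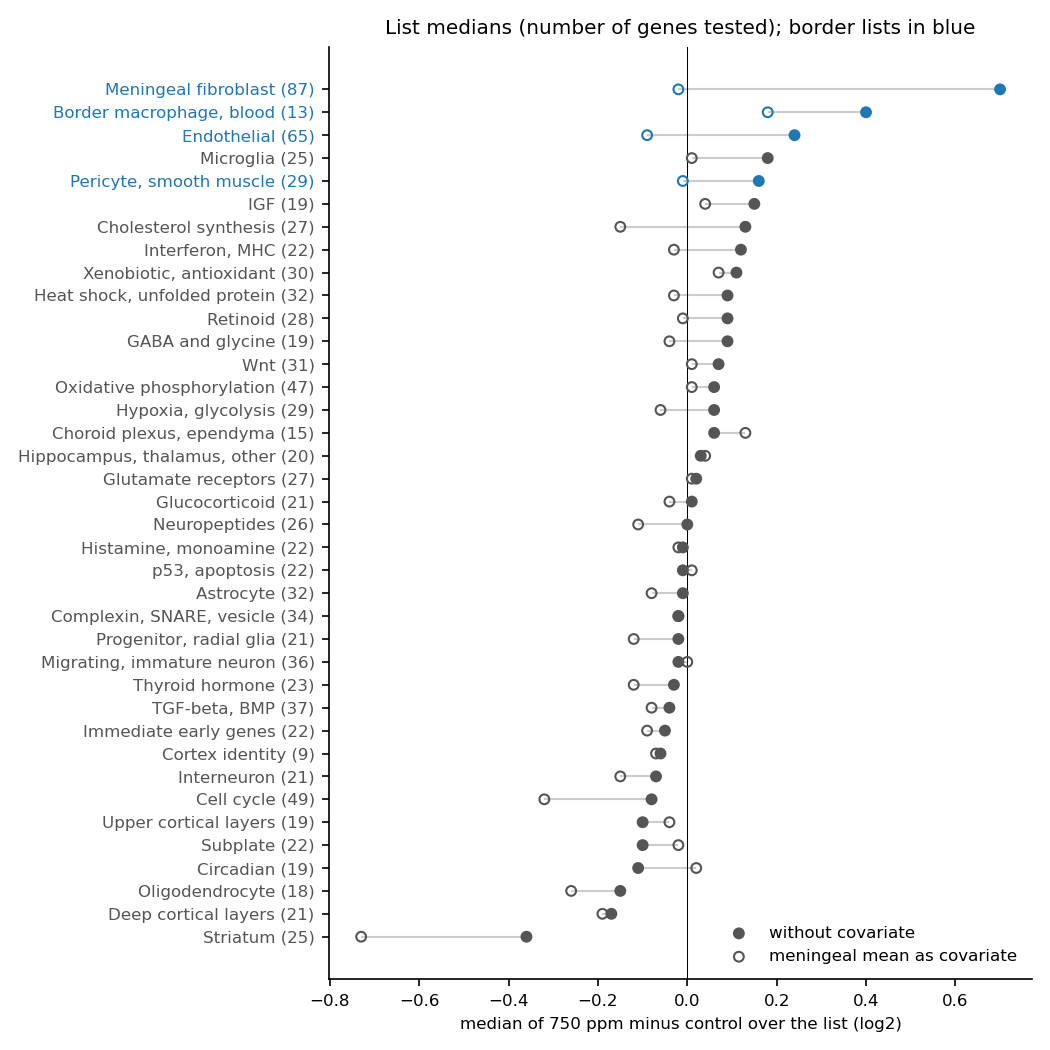
Median log2 difference of 750 ppm from control for 38 gene lists, with the number of genes tested, without a covariate (filled) and with the meningeal mean as covariate (open); border lists are blue. The meningeal median goes from 0.70 to -0.02 and the endothelial from 0.24 to -0.09, while the striatal goes from -0.36 to -0.73 and the oligodendrocyte from -0.15 to -0.26.

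Probe sets of a gene usually lay on the same side. Of 3340 genes with more than 1 tested probe set, 211 probe sets had an unadjusted p under 0.01, and for 170 of these every other probe set of the gene had the same sign. Probe sets without a single gene symbol, having none or several, lay lower more often than higher. Of 5580 tested, 185 lay higher and 420 lower below an unadjusted p of 0.05. The 2 calls include 1 of them. Among the 9313 dim probe sets, which were not tested, the groups did not overlap for 330 higher and 421 lower. In the direct comparison of 2500 with 750 ppm 70 probe sets passed (0.322%) and 2733 had an unadjusted p under 0.05 (12.6%), and 149 passed for 2500 ppm against control (0.686%). These contrasts share arrays with the comparison described here.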

How the data were processed

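The authors deposited 1 table of log2 intensities per probe set for 9 arrays, made with RMA in affy, per the submitters' processing notes; versions are not given in the sources used here. From 100 ng of RNA per pup labelled RNA was transcribed for 16 h, per the labels' protocols. RMA sets the arrays to 1 common distribution, so depth cannot be read from the values, and the number of arrays limits the precision. Array controls were left out, as were the 30% of probe sets with the lowest mean. limma 3.58.1 (R 4.3.3, statmod 1.5.0) fitted 1 mean per group over all 9 arrays, with Benjamini-Hochberg adjustment over 21729 probe sets; the residual SD had a median of 0.108. The procedure was checked on simulated data with independent noise in each probe set and array. In the real arrays many genes vary together, so that check does not cover such shared variation. Of 31042 probe sets 20826 had 1 gene symbol in the platform annotation, 436 several and 9780 none. Gene counts use the brightest tested probe set of a gene.

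The members, 40 gene lists and 55 families were chosen with earlier results of these data known. Named genes are every probe set past the adjusted threshold; the 12 higher and 12 lower genes outside border lists with the smallest p, a difference of at least 0.5 and no overlap; and up to 4 members of a list or family by smallest p, or any member of a check list or a family of up to 8 genes. Ccn2, Nr4a2, Rbp4, Rara, Rxra, Rxrb, Cyp26b1, Rxrg, Rarb, Lyve1, Hbb, Myrf, Nkx2-2, Vcan, Mbp, Zfp488, Pdgfra, Olig1, Isg15, Ifit1, Irf7, Mx2, Stat2, Rsad2, Hmox1, Klf9, Calb2 and Drd1 fall outside this rule and were chosen after their values were seen. Alternatives were other filters, array weights, median centring, a trended robust prior, the 6 arrays alone, a replicate block, the meningeal mean as covariate, other thresholds, and each array left out in turn.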

Additional observations from a re-analysis of the deposited data

How the results depend on the processing

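The count of 2 probe sets past the adjusted threshold was 340 with array weights, 1 with only the 6 arrays compared, 0 with the meningeal mean as covariate and 71 without control and 750 ppm replicates 3, an alternative chosen after seeing the data; leaving out 1 array gave 0 to 48. It was 0 without control replicate 2, control replicate 3, or 2500 ppm replicate 1 or 3, and 48 without 750 ppm replicate 3. At an unadjusted p under 0.05, the 1253 higher and 949 lower probe sets were 2390 and 1908 with array weights, 263 and 349 with the covariate, and 445 and 242 at an unadjusted p under 0.01. Outside the border lists, the 1106 higher and 947 lower were 2261 and 1900 with array weights, 250 and 339 with the covariate, and 338 and 242 at p under 0.01. Leaving out 1 array gave 686 (without 750 ppm replicate 1) to 1845 (without control replicate 2) higher and 633 to 1194 lower, or 560 to 1707 higher and 633 to 1190 lower outside the border lists. With all arrays set to the same median the split was 1137 higher and 1088 lower.

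The 23 genes without a call that were named by p, size and lack of overlap outside the border lists kept their sign under the alternatives run on them, though Gjb6 was at 0.00 in the covariate fit. The other named genes were not run through every alternative, and Ifitm2 and Ifitm1 were at -0.07 and -0.03 in the covariate fit. Of the list medians, 11 of 39 changed side of 0 when 1 array was left out. The replicate numbers did not pair control and 750 ppm arrays (correlations of 0.113, -0.209 and -0.084). With the replicate block 2 probe sets passed, 1232 lay higher and 1010 lower, and the adjusted p of 1383612_at was 0.0643. The cause of these shifts was not tested. The 3 arrays per group limit what could be detected, and dim probe sets were not tested.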
